A study of Danio rerio with 12 samples.

Results

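RNA of maternal null zebrafish embryos (Danio rerio) was set gene by gene against RNA of wild-type embryos, both at the shield stage, 6 h after fertilization. The comparison rests on the 2 maternal null and the 2 wild-type shield libraries, chosen by their labels out of the 12 libraries of the series, and on the 19166 genes with enough counts to be tested out of 22737 in the count table. The maternal null embryos are labelled Anp32e Maternal Null with the strain Tu X NHGRI, and the wild-type embryos Wild Type with the strain Tu. Beside them stood 2 null libraries (Anp32e Null, strain NHGRI) and 2 paternal null libraries (Anp32e Paternal Null, strain Tu X NHGRI) of the same stage, which entered the same fit. No shield embryo was injected. The labels give neither the lesion in anp32e nor how many embryos, clutches or parents were pooled. Because the null fish bear another strain label than the wild type, a null mother and an egg of the NHGRI strain cannot be told apart. In these whole-embryo libraries, fewer cells of a type and less RNA per cell cannot be told apart either.

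A zebrafish egg is loaded with maternal RNA and protein that carry the embryo until its own genome is switched on. By the shield stage the embryo has begun gastrulation: the shield is the dorsal thickening that works as the organizer, the enveloping layer is the thin keratin-rich epithelium around the blastoderm, and the yolk syncytial layer lies on the yolk. Anp32e is a histone chaperone known for taking the variant H2A.Z out of nucleosomes, and the title of the series is about nucleosomes that hold a place during the reprogramming of DNA methylation from germline to embryo. The maternal null embryo asks what differs when the egg lacked the gene while the sperm brought a wild-type copy. Chaperones of the Hsp70 and Hsp90 families, which appear repeatedly in the results, refold or hold proteins, and their inducible copies are switched on by the heat shock factor Hsf1 when unfolded proteins build up.

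The libraries held 18.5 and 23.6 M counts in maternal null and 25.1 and 13.5 M in wild type. The maternal null libraries differed from each other hardly beyond the noise of counting: over 17490 genes the chi-square was 1.16 per degree of freedom, against 95.2 over 17620 genes between the wild-type libraries. Of the tested genes, 6 lay over 2-fold apart between the maternal null libraries and 2930 (15.3%) between the wild-type libraries, on CPM + 0.5, where CPM is counts scaled to a common library total. The maternal null pair therefore weighs as 1 sample. Genes are called higher or lower when they passed a false discovery rate of 0.05 in edgeR's quasi-likelihood test with every library. Rose and fell are kept for genes that also passed, in the same direction, with each near-identical pair summed into 1 sample, a fit whose spread comes from wild type alone. Nothing says that libraries came from separate clutches, so p-values measure at most the spread between these libraries. With pairs summed, 1 residual degree of freedom is left, so those p-values rest largely on a spread shared across genes. They can be smaller than with every library even where the wild-type libraries of a gene lay far apart. Defining markers of the labelled stage were present: tbxta stood at 682 and 692 CPM in maternal null and at 699.6 and 582.5 CPM in wild type, and none of the 8 tested gastrula markers was called. Of 4 sperm and testis markers 2 are in the table, summing to 2.38 and 2.67 CPM in maternal null and 2.91 and 2.66 CPM in wild type.

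The targeted gene anp32e (ENSDARG00000054804, chr19:42758985-42772378 in coordinates the table heads Zv10) had 1212 and 1226 CPM in maternal null libraries, against 2285 and 3172 CPM in wild-type libraries. Both maternal null libraries lay below both wild-type libraries. The log2 fold change was -1.16 ± 0.23 (SE; edgeR adjusted p = 0.0375 with every library, but 1.0 with pairs summed), so that anp32e was lower but did not pass as fallen. It was the only called gene of 35 tested genes for H2A.Z, its exchange and the Anp32 family (2.86% lower, against 2.67% of all genes). Their median log2 fold change was -0.10, against -0.02 over all genes tested. Null libraries held 81.2 and 80.5 CPM of anp32e and paternal null libraries 1420 and 1413 CPM.

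With every library, 639 of 19166 genes were higher in maternal null (3.33%) and 512 were lower (2.67%). In both fits, 73 rose (0.381%) and 41 fell (0.214%). The genes that rose had a median log2 fold change of 3.16, between 2.06 and 9.33, and those that fell a median of -4.05, between -9.42 and -2.57. All 114 had both maternal null libraries more than 2-fold beyond the nearer wild-type library, which follows largely from their selection and adds no support. By any margin, 4024 tested genes (21.0%) lay above both wild-type libraries in both maternal null libraries and 4334 (22.6%) below both. Of the genes that rose, 31 of the 73 averaged under 5 CPM in maternal null, and of those that fell, 34 of the 41 averaged under 10 CPM in wild type. The genes that rose took 0.583% and 0.574% of the counts in maternal null libraries, against 0.0318% and 0.0180% in wild-type libraries. On CPM + 0.5, the wild-type libraries lay over 2-fold apart for 21 of the 73 genes that rose and for 7 of the 41 that fell. The added 0.5 draws low values together, and 41 of the 73 genes that rose averaged under 1 CPM in wild type. On plain CPM more of them lay over 2-fold apart.

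These counts depend on how the spread is estimated. Without maternal null replicate 1 the calls with every library were 42 higher and 20 lower, and without maternal null replicate 2 they were 32 and 13, of which 26 and 17, and 20 and 10, also passed with 1 sample per pair. Without wild-type replicate 1 or 2 the calls with every library became 5017 higher and 4718 lower, or 5410 and 5847, since the spread then came from near-identical pairs. In a fit of the 4 libraries alone edgeR called 0 genes, with 2169 at an unadjusted p under 0.05.

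**Figure D1:**
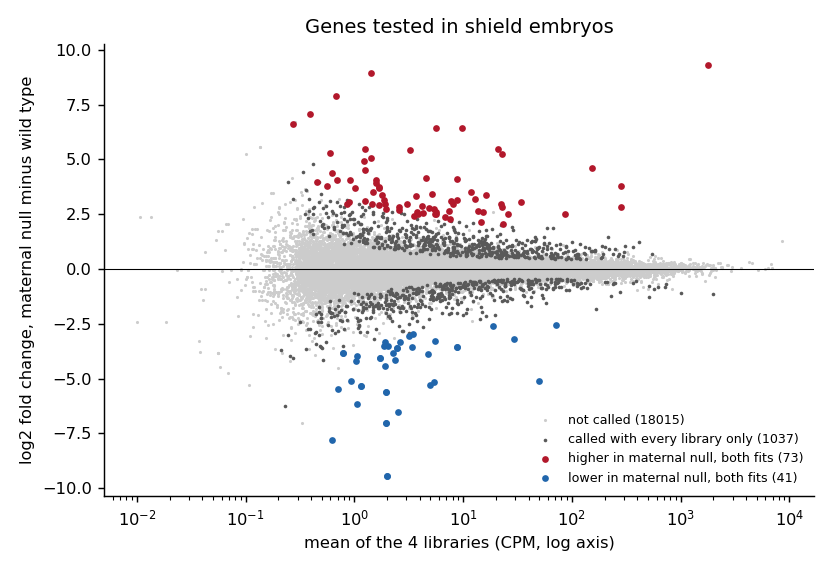
Log2 fold change of each tested gene, maternal null minus wild type (vertical axis), against its mean over the 4 libraries in CPM (horizontal log axis). Red and blue points are the 73 genes that rose and the 41 that fell in both fits, dark points the genes called with every library only; 1 red point, zgc:158463, stands at the upper right with a log2 fold change of 9.33.

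Several Hsp70 and Hsp90 chaperone genes rose. Of 17 tested Hsp70 genes, 7 were higher (41.2%, against 3.33% of all genes) and none lower. Of the 7, 6 rose, while 0.381% of all genes rose. The list median was 0.41, against -0.02 over all genes tested. Of 5 tested Hsp90 genes, 2 were higher (40%) and none lower, and both rose. Without either maternal null library 5 or 4 Hsp70 genes were higher and none lower, and without wild-type replicate 1 or 2 the calls were 9 higher and 4 lower, or 14 and 2. Among the 8 genes that rose are hsp70.1, hsp70.3 and hsp70l, known as copies that heat induces. The 2 maternal null libraries were the highest of the 8 shield libraries for each of these 8 genes.

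Among the Hsp70 genes, hsp70.3 had 40.6 and 41.1 CPM in maternal null libraries, against 1.03 and 0.813 CPM in wild-type libraries, a log2 fold change of 5.48 ± 0.17 (SE; edgeR adjusted p = 0.000111 with every library, 1.62e-12 with 1 sample per pair). Null libraries held 4.94 and 4.81 CPM of it and paternal null libraries 1.37 and 1.75 CPM. Its neighbours on chromosome 3 moved with it. The gene hspa2 had 11.14 and 11.28 CPM in maternal null libraries and 0.159 and 0.0740 CPM in wild-type libraries, and hsp70.1 had 6.22 and 6.66 CPM against 0.239 and 0 CPM. The 3 genes lie side by side from chr3:25981913-25984688 (hsp70.1) to chr3:25992864-25996220 (hsp70.3), and reads of near-identical copies may have been split between them, so the total is firmer than the share of each. On chromosome 8, hsp70l had 19.4 and 19.6 CPM in maternal null libraries, against 0.318 and 0.0740 CPM in wild-type libraries, an 83.8-fold difference of the summed counts.

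The hspa8 copy ENSDARG00000037403 had 42.8 and 45.1 CPM in maternal null libraries, against 0.478 and 2.22 CPM in wild-type libraries. Its wild-type libraries were far apart, and both still lay below maternal null (log2 fold change 5.23 ± 0.64 SE; edgeR adjusted p = 0.00905). The gene hsph1, which encodes an Hsp110 nucleotide exchange factor that resets Hsp70, rose less: 11.8 and 13.4 CPM in maternal null libraries, against 3.14 and 2.14 CPM in wild-type libraries (log2 fold change 2.27 ± 0.18 SE; edgeR adjusted p = 0.00272, and 0.0484 with 1 sample per pair). A further Hsp70 gene, hspa1b, had 1.41 and 1.31 CPM in maternal null libraries and 0.239 and 0.222 CPM in wild-type libraries and was higher with every library only.

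The Hsp90 alpha gene hsp90aa1 had 298 and 289.8 CPM in maternal null libraries, against 14.5 and 10.4 CPM in wild-type libraries (log2 fold change 4.60 ± 0.13 SE; edgeR adjusted p = 0.000111). Null libraries held 43.5 and 42.0 CPM and paternal null libraries 15.1 and 15.5 CPM. Against paternal null, a contrast in which no wild-type library enters, its log2 difference was 4.29 (edgeR adjusted p = 0.000171), and that of hsp70.3 was 4.72 (edgeR adjusted p = 0.000173). Both crosses are near-identical pairs, so those p-values rest on a spread borrowed from wild type; over all genes, 1778 (9.28%) passed in that contrast. The neighbour hsp90aa1.1, whose interval overlaps that of hsp90aa1 and whose reads may be shared with it, had 5.68 and 5.09 CPM in maternal null libraries and 0.677 and 0.740 CPM in wild-type libraries. The Hsp90 beta gene hsp90ab1, used by nearly all cells, had 2400 and 2390 CPM in maternal null libraries, against 1984 and 2561 CPM in wild-type libraries, which overlapped.

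**Figure D2:**
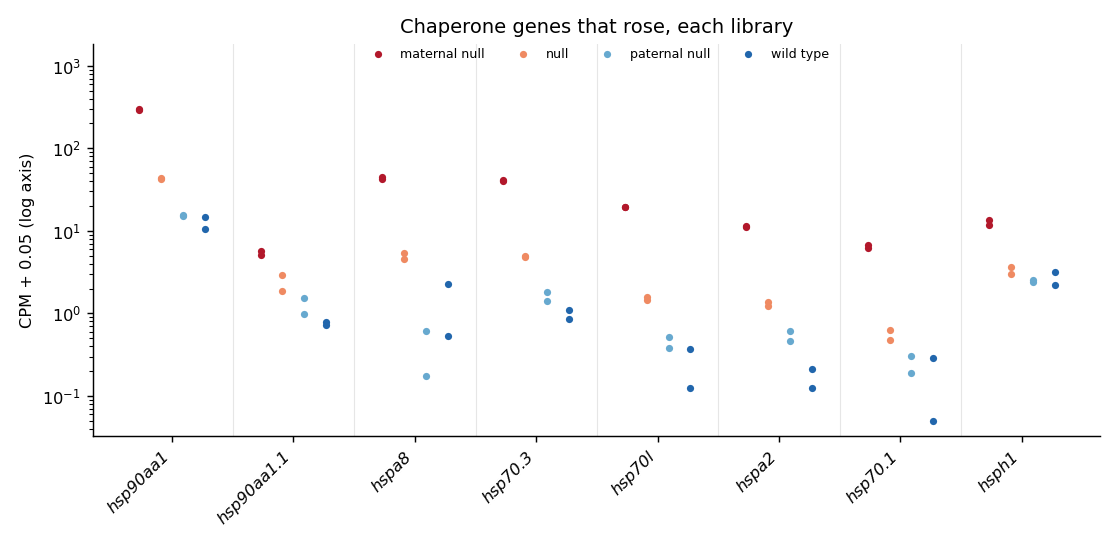
CPM + 0.05 (vertical log axis) of the 8 Hsp70 and Hsp90 genes that rose, 1 point per library, for maternal null, null, paternal null and wild type from left to right within each gene. For every gene the maternal null points are the highest; null points come next except for hsph1, where they overlap wild type.

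Of 42 tested Hsp40 co-chaperone genes, which pass clients to Hsp70, 3 were higher (7.14%, against 3.33% of all genes) and 1 lower, and none rose or fell. The largest in level of the 3, dnajb1b, had 379 and 385 CPM in maternal null libraries and 231 and 218 CPM in wild-type libraries, 1.69-fold. Of 36 chaperonin and co-chaperone genes 2 were higher (5.56%): the collagen chaperone serpinh1 (ENSDARG00000075954), with 27.4 and 29.4 CPM against 7.999 and 8.13 CPM, and the Hsp90 partner chordc1 (ENSDARG00000003973), with 21.4 and 21.8 CPM against 10.2 and 6.51 CPM. None of 3 tested small heat shock protein genes was called, and hspb1 had 1644 and 1640.2 CPM in maternal null libraries, against 1192 and 1824 CPM in wild-type libraries. None of 46 proteasome genes was called (median log2 fold change 0.02). Of 33 unfolded protein response genes, which answer misfolding in the endoplasmic reticulum, 1 was higher and 1 lower. Each is 3.03%, against 3.33% and 2.67% of all genes.

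Immediate early genes, the transcription factors and phosphatases that cells switch on within minutes of a stimulus, stood high as a list without passing in both fits. Of 30 tested, 6 were higher and none lower (20.0%, against 3.33% of all genes), and the median was 0.81. Above both wild-type libraries lay 23, and none lay below both, against 21.0% and 22.6% of all genes tested. The count of higher genes was 1 with no scaling factors, 2 with the replicate number as a block and 0 without either maternal null library, and 18 or 23 without wild-type replicate 1 or 2. The AP-1 gene jun had 31.4 and 28.8 CPM in maternal null libraries, against 13.1 and 8.80 CPM in wild-type libraries (log2 fold change 1.496 ± 0.15 SE; edgeR adjusted p = 0.00480 with every library, 0.595 with 1 sample per pair). Its partner fos had 9.03 and 8.61 CPM in maternal null libraries and 4.22 and 1.48 CPM in wild-type libraries. The phosphatase gene dusp5 had 3.30 and 3.52 CPM in maternal null libraries, against 1.07 and 0.148 CPM in wild-type libraries. The wild-type libraries differed by over 2-fold for fos and dusp5, and both stayed below maternal null. Of other stress lists, 2 of 28 p53 targets were higher (plk3 and btg2), as were 2 of 39 hypoxia and glycolysis genes. Of 39 oxidative stress and metal genes 2 were higher and 1, msraa, fell. The shares higher in these lists were 7.14%, 5.13% and 5.13%, against 3.33% of all genes.

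Some collagen, collagen modification and immune genes rose, while most members of their lists were not called. Fibrillar collagens are the rope-like proteins of skin and bone, and type I collagen is built from the products of col1a1 and col1a2 genes. Of 41 tested collagen genes, 5 were higher and 5 lower (12.2% each, against 3.33% and 2.67% of all genes); 4 rose and none fell (median -0.12). Without either maternal null library at most 1 was called, and without wild-type replicate 1 the calls were 14 higher and 10 lower with a median of 0.31, while without wild-type replicate 2 they were 9 and 16 with a median of -0.19. The chromosome 12 gene col1a1 had 14.9 and 16.5 CPM in maternal null libraries, against 2.51 and 0.961 CPM in wild-type libraries (log2 fold change 3.15 ± 0.30 SE; edgeR adjusted p = 0.00430). Its copy col1a1a on chromosome 3 had 10.9 and 12 CPM in maternal null libraries, against 2.75 and 1.77 CPM in wild-type libraries. The gene col1a2 had 9.35 and 10.1 CPM in maternal null libraries and 2.03 and 1.11 CPM in wild-type libraries.

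A col10a1 copy (ENSDARG00000101535), known for hypertrophic cartilage and fish bone, had 9.84 and 9.46 CPM in maternal null libraries, against 2.59 and 0.666 CPM in wild-type libraries. Of 32 tested collagen modification genes, 3 were higher (9.4%, against 3.33% of all genes) and 1 lower (3.1%, against 2.67%). The gene p4ha3, for a subunit of the enzyme that hydroxylates prolines in collagen, rose. It had 9.35 and 7.76 CPM in maternal null libraries and 0.398 and 0.666 CPM in wild-type libraries. Null libraries also held 7.003 and 7.64 CPM of p4ha3, while paternal null libraries held 0.425 and 0.543 CPM. The gene col1a1 had another pattern: it stood at 0.233 and 0.189 CPM in null libraries and 0.189 and 0.292 CPM in paternal null libraries, below both wild-type libraries. Against paternal null the log2 difference of col1a1 was 6.004 (edgeR adjusted p = 0.00133). The bone matrix gene sparc, higher with every library only, had 4.81 and 4.79 CPM in maternal null libraries and 0.796 and 0.961 CPM in wild-type libraries.

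Of 65 tested genes of innate immunity and antigen presentation, 8 were higher (12.3%, against 3.33% of all genes) and 2 lower (3.08%, against 2.67%), 5 rose and 1 fell (median 0.27). Without wild-type replicate 2 the calls were 24 higher and 18 lower with a median of 0.02, without wild-type replicate 1 they were 30 and 6, and without either maternal null library none was higher. The chemokine gene cxcl8a, whose product draws neutrophils, had 6.92 and 6.53 CPM in maternal null libraries, against 1.11 and 0.0740 CPM in wild-type libraries (log2 fold change 3.31 ± 0.58 SE; edgeR adjusted p = 0.0340, and 0.000843 with 1 sample per pair). Null libraries held 0 counts of it. The chemokine gene cxcl18b had 8.76 and 8.14 CPM in maternal null libraries, 0.117 and 0.141 CPM in null libraries, 0 in paternal null libraries and 1.91 and 0.444 CPM in wild-type libraries. The class II antigen presentation gene mhc2dab had 3.30 and 3.35 CPM in maternal null libraries, against 0.438 and 0.148 CPM in wild-type libraries. Wild-type replicate 1 was the higher wild-type library for these 3 genes and for the 4 collagen genes that rose. The blood marker lcp1, the only detected marker of 4 for blood, had 33.8 and 34.7 CPM in maternal null libraries and 55.2 and 14.05 CPM in wild-type libraries, and its part in these results was not tested. The complement gene c7b fell, with 0.487 and 0.551 CPM in maternal null libraries, against 7.004 and 5.62 CPM in wild-type libraries (log2 fold change -3.55 ± 0.22 SE; edgeR adjusted p = 0.00140). The receptor gene nlrc9 and the interferon-induced ifi44f4 also rose. In maternal null libraries nlrc9 had 2.70 and 2.84 CPM, against 0.398 and 0 CPM in wild-type libraries. For ifi44f4 the values were 2.43 and 2.76 CPM, against 0.557 and 0 CPM. Null and paternal null libraries averaged 6.58 and 3.35 CPM of nlrc9, and 6.045 and 3.946 CPM of ifi44f4, above maternal null. The interval of ifi44f4 holds that of si:ch211-197g15.9, which also rose, so reads may be shared.

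**Figure D3:**
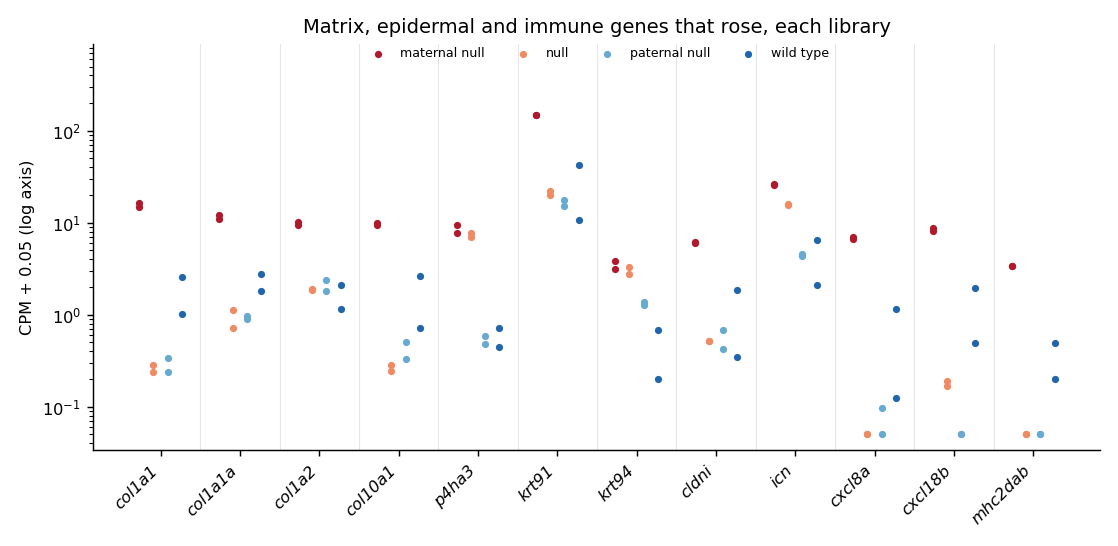
CPM + 0.05 (vertical log axis) of collagen, epidermal and immune genes that rose, 1 point per library, for maternal null, null, paternal null and wild type from left to right within each gene. Maternal null points lie near each other and above both wild-type points for all 12 genes, while for p4ha3, krt94 and icn the null points lie above both wild-type points too.

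Of 36 tested enveloping layer genes, 13 were higher (36.1%, against 3.33% of all genes) and none lower, 4 rose, and the median was 0.42. Without wild-type replicate 2 the calls were 18 higher and 17 lower with a median of 0.16, and without wild-type replicate 1 they were 36 and 0. Without maternal null replicate 1 or 2, 1 or 0 were higher, and with no scaling factors 8. The keratin gene krt91 had 147 and 147 CPM in maternal null libraries, against 42.8 and 10.8 CPM in wild-type libraries (log2 fold change 2.53 ± 0.49 SE; edgeR adjusted p = 0.0337); its interval overlaps that of the keratin gene cyt1, so reads may be shared. Null libraries held 20.0 and 22.0 CPM of krt91 and paternal null libraries 17.5 and 15.0 CPM. The S100 gene icn, called ictacalcin, had 26.3 and 25.7 CPM in maternal null libraries and 6.45 and 2.07 CPM in wild-type libraries. The keratin gene krt94 and the claudin gene cldni, for a tight junction protein, rose as well, with 3.78 and 3.05 CPM and 5.95 and 6.15 CPM in maternal null libraries, against 0.637 and 0.148 CPM and 1.79 and 0.296 CPM in wild-type libraries.

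The abundant marker krt4 of that layer was not called. It had 1098 and 1113 CPM in maternal null libraries, between the 1319 and 629 CPM of the wild-type libraries, and 4 of 8 enveloping layer markers were higher. Their summed level was 1946 and 1948 CPM in maternal null libraries, against 2169 and 1011 CPM in wild-type libraries. The same sum was 4152 and 4168 CPM in null libraries and 5327 and 5342 CPM in paternal null libraries. Both of these groups stood above maternal null and wild type. Among genes higher with every library only, anxa1 had 138 and 142 CPM in maternal null libraries, against 58.9 and 60.9 CPM in wild-type libraries, and agr1 had 13.7 and 15.6 CPM against 6.96 and 5.32 CPM.

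Of 32 tested yolk syncytial layer genes, 10 were higher (31.2%, against 3.33% of all genes) and none lower. None passed in both fits, where 0.381% of all genes rose and 0.214% fell. The median was 0.74. Above both wild-type libraries lay 20 of the 32, and none lay below both, against 21.0% and 22.6% of all genes tested. None was called without either maternal null library and 6 were higher with the replicate block, while without wild-type replicate 1 or 2 the calls were 20 higher and 5 lower, or 24 and 0. The homeobox gene mxtx1, which works in that layer, had 45.7 and 44.8 CPM in maternal null libraries, against 23.6 and 15.9 CPM in wild-type libraries (log2 fold change 1.24 ± 0.13 SE; edgeR adjusted p = 0.00611 with every library, 0.946 with 1 sample per pair). The hepatic and yolk regulators hnf4a and cebpa had 94.5 and 96.2 CPM and 22.1 and 21.5 CPM in maternal null libraries, against 61.7 and 32.5 CPM and 11.0 and 7.395 CPM in wild-type libraries. The retinol carrier gene rbp4 had 3.14 and 3.05 CPM in maternal null libraries and 0.716 and 0.444 CPM in wild-type libraries. The 6 markers of that layer summed to 317 and 316 CPM in maternal null libraries, against 242 and 147 CPM in wild-type libraries. Paternal null libraries, at 316 and 310 CPM, stood at the maternal null level.

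**Figure D4:**
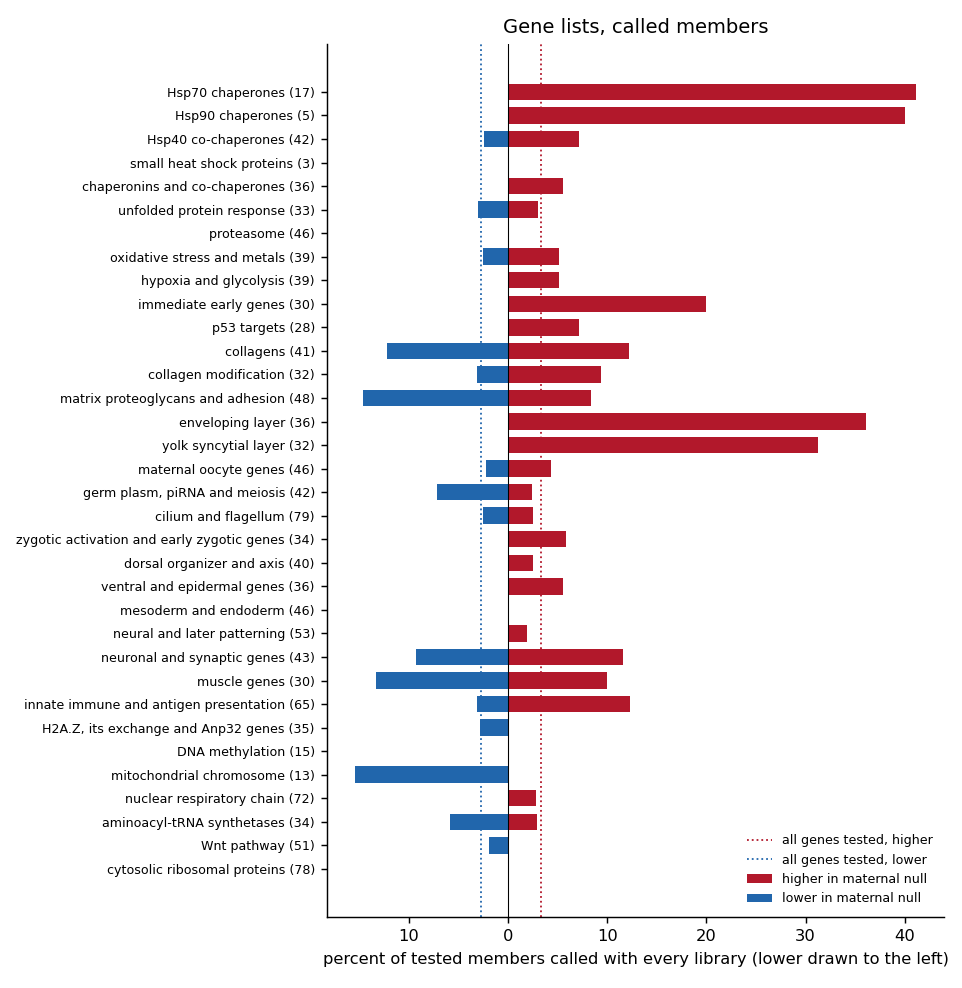
Percent of the tested members of each gene list that were higher (red, to the right) or lower (blue, to the left) in maternal null with every library; the number tested stands in brackets and dotted lines mark the shares over all genes, 3.33% and 2.67%. Hsp70, Hsp90, enveloping layer and yolk syncytial layer lists reach furthest to the right, and matrix and mitochondrial lists furthest to the left.

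The most abundant gene that rose, zgc:158463 (ENSDARG00000089382, chr5:825788-827000), is on the list of early zygotic genes. It had 3587 and 3522 CPM in maternal null libraries, against 11 and 0 CPM in wild-type libraries. It was as high in null libraries, at 3507 and 3556 CPM, and as low in paternal null libraries, at 11.2 and 9.43 CPM. The log2 fold change was 9.33 ± 1.30 (SE; edgeR adjusted p = 0.0132, and 0.0162 with 1 sample per pair), and that against paternal null 8.46 (edgeR adjusted p = 0.0123). Its level split the 4 groups by the mother, and so also by the strain of the egg. Of the 34 tested early zygotic genes 2 were higher (5.88%, against 3.33% of all genes). The other was vox, a ventral repressor gene with 354 and 354 CPM in maternal null libraries and 263 and 217 CPM in wild-type libraries.

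Entries for the RNA of the signal recognition particle, the complex that docks ribosomes at the endoplasmic reticulum, moved in opposite directions. The symbol metazoa_srp stands for 17 entries, of which 14 were tested, 5 were higher, 1 was lower and 3 rose. ENSDARG00000089201 had 499 and 488 CPM in maternal null libraries, against 73.4 and 70.17 CPM in wild-type libraries (log2 fold change 2.81 ± 0.12 SE; edgeR adjusted p = 0.000377). ENSDARG00000099163 had 38.4 and 40.7 CPM against 5.81 and 5.69 CPM, whereas ENSDARG00000087060 had 165 and 166 CPM in maternal null libraries and 284 and 224 CPM in wild-type libraries. All entries together came to 2315 and 2269 CPM in maternal null libraries, 1933 and 1976 CPM in null libraries, 3791 and 3721 CPM in paternal null libraries and 1802 and 1644 CPM in wild-type libraries. Reads may have been split between near-identical copies, so the values of single entries are uncertain.

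A pair of entries without a symbol, placed between metazoa_srp entries on chromosome 11, also moved in opposite directions. ENSDARG00000103219 had 527 and 518 CPM in maternal null libraries, against 48.9 and 28.8 CPM in wild-type libraries. ENSDARG00000098539 had 21.2 and 20.2 CPM in maternal null libraries, against 105 and 141 CPM in wild-type libraries, and fell (log2 fold change -2.57 ± 0.22 SE; edgeR adjusted p = 0.00332).

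Several genes known from other tissues rose, with low levels or no counts in wild type. The meiotic gene sycp1, for a protein of the synaptonemal complex, had 16.6 and 16.9 CPM in maternal null libraries, against 1.47 and 0.370 CPM in wild-type libraries (log2 fold change 4.09 ± 0.35 SE; edgeR adjusted p = 0.00334). Null libraries held 10.1 and 10.2 CPM and paternal null libraries 1.09 and 1.21 CPM. It was the only member that rose among 42 tested germ plasm, piRNA and meiosis genes. Of these, 1 was higher (2.38%, against 3.33% of all genes) and 3 lower (7.14%, against 2.67%). The lower gene piwil2 had 22.8 and 23.7 CPM in maternal null libraries and 37.5 and 33.8 CPM in wild-type libraries. The kinase gene stk33 had 2.59 and 2.84 CPM in maternal null libraries, against 0 and 0.222 CPM in wild-type libraries, 35.2-fold with an exact 95% counting interval from 11.7 to 173. The heart troponin gene tnnt2 had 1.24 and 1.44 CPM in maternal null libraries and no counts in wild-type libraries, at least 17.5-fold higher with 3 counts over the group as the floor. Null libraries averaged 0.902 CPM of tnnt2 and paternal null libraries 0.0236 CPM. The muscle markers summed to 3.30 and 3.90 CPM in maternal null libraries and 6.25 and 5.69 CPM in wild-type libraries. Of 30 tested muscle genes, 3 were higher (10%, against 3.33% of all genes) and 4 lower (13.3%, against 2.67%), median -0.09. Among 79 tested cilium and flagellum genes, 2 were higher and 2 lower (2.53% each, median -0.22).

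The 3 neuronal genes that rose also stood above wild type in null and paternal null libraries. The transporter gene slc6a16a had 43.0 and 43.7 CPM in maternal null libraries, 48.6 and 47.2 CPM in null libraries, 64.4 and 67.2 CPM in paternal null libraries and 12.1 and 3.55 CPM in wild-type libraries. The calcium channel gene cacna1ha had 14.4 and 14.4 CPM in maternal null libraries, 34.5 and 36.2 CPM in null libraries, 14.5 and 12.5 CPM in paternal null libraries and 3.14 and 0.370 CPM in wild-type libraries. The dopamine receptor gene drd4a had 0.973 and 2.12 CPM in maternal null libraries, against 0.279 and 0.0740 CPM in wild-type libraries, with means of 4.2 CPM in null and 2.05 CPM in paternal null libraries. These comparisons share the wild-type libraries, which lay more than 3-fold apart for all 3 genes. Of 43 tested neuronal and synaptic genes, 5 were higher (11.6%, against 3.33% of all genes) and 4 lower (9.30%, against 2.67%). Of the lower genes cacnb4b, a calcium channel subunit gene, fell.

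The genes that fell include 3 of extracellular matrix and adhesion. Of 48 tested matrix proteoglycan and adhesion genes, 4 were higher and 7 lower (14.6%, against 2.67% of all genes), 3 fell, and the median was -0.25. Without wild-type replicate 1 the calls were 16 higher and 13 lower with a median of 0.10, without wild-type replicate 2 they were 7 and 26, and without either maternal null library 1 was lower and none higher. The gene hapln4, for a protein that links hyaluronan to proteoglycans of the nervous system, had 5.57 and 5.34 CPM in maternal null libraries, against 73.0 and 32.6 CPM in wild-type libraries (log2 fold change -3.21 ± 0.30 SE; edgeR adjusted p = 0.00411). Null libraries held 1.67 and 1.84 CPM and paternal null libraries 37.3 and 37.7 CPM. Its neighbour on chromosome 22, the neurocan gene ncan, had 0.378 and 0.212 CPM in maternal null libraries and 4.89 and 3.47 CPM in wild-type libraries. The integrin subunit gene itgam.1 had 0.324 and 0.255 CPM in maternal null libraries, against 14.8 and 6.21 CPM in wild-type libraries. Of the other 4 lower genes, which did not pass with pairs summed, fn1 (ENSDARG00000019815), the fibronectin gene, had 60.5 and 57.3 CPM in maternal null libraries and 101 and 131 CPM in wild-type libraries.

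Single genes of other functions fell by about as much. The refilin gene rflnb, for a binder of the actin linker filamin, had 0.162 and 0.297 CPM in maternal null libraries, against 14.3 and 5.25 CPM in wild-type libraries (log2 fold change -5.29 ± 0.55 SE; edgeR adjusted p = 0.00545). The gene tars3, for a threonyl-tRNA synthetase, had 0.865 and 0.339 CPM in maternal null libraries and 10.4 and 7.32 CPM in wild-type libraries, and it was the only one of 34 tested aminoacyl-tRNA synthetase genes that fell. The gene msraa, for an enzyme that repairs oxidized methionine, had 0.541 and 0.382 CPM in maternal null libraries, against 4.62 and 4.95 CPM in wild-type libraries. The gene gsk3bb, for a copy of the Wnt pathway kinase Gsk3, had 0.433 and 0.255 CPM in maternal null libraries, against 3.50 and 3.40 CPM in wild-type libraries. It was the only called gene of 51 tested Wnt pathway genes (1.96% lower, against 2.67% of all genes). Paternal null libraries averaged 0.701 CPM of gsk3bb, near maternal null, whereas they averaged 6.4 CPM of tars3 and 4.90 CPM of msraa, near wild type. Of the 41 entries that fell, which are 33 distinct count profiles, 34 averaged in null libraries no more than 2-fold the maternal null level, or 0. How many of all tested genes meet that wide bound is not given here, so the count describes these entries only.

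The entry si:ch1073-190k2.1 (ENSDARG00000097973) had 2.59 and 2.72 CPM in maternal null libraries, against 121 and 71.1 CPM in wild-type libraries (log2 fold change -5.12 ± 0.24 SE; edgeR adjusted p = 0.00140). It had no counts in null libraries and 68.9 and 70.0 CPM in paternal null libraries. The entry si:dkey-46g23.5 had 4.97 and 5.43 CPM in maternal null libraries and 33.2 and 31.6 CPM in wild-type libraries. Its wild-type libraries were close to each other, and the log2 fold change was -2.61 ± 0.14 (SE; edgeR adjusted p = 0.000786).

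Of the 41 entries that fell, 15 lay in a single stretch of 11.2 kb, chr20:3306064-3317257. The stretch holds 17 entries of nearly equal length, and 1 of them, ENSDARG00000103728, carries the symbol u3, the small nucleolar RNA that guides the first cuts of ribosomal RNA. Overlapping entries have identical counts, so the 15 are 8 distinct count profiles of entries 217 to 218 bases long, with a median spacing of 0.964 kb between starts. Summed over the 8, maternal null libraries held 2.33 and 1.65 CPM, null libraries 3.97 and 4.76 CPM, paternal null libraries 48.3 and 51.2 CPM and wild-type libraries 47.1 and 35.2 CPM. The u3 entry had 0.108 and 0.0424 CPM in maternal null libraries, 2 and 1 counts, against 3.86 and 3.77 CPM in wild-type libraries, 53.7-fold lower with an exact 95% counting interval from 18 to 263. One profile (ENSDARG00000101370) had no counts in maternal null libraries, against 4.98 and 2.96 CPM in wild-type libraries, at least 59.9-fold lower. The remaining profile of the stretch, ENSDARG00000099125, had 2.76 and 2.63 CPM in maternal null libraries and 3.26 and 2.44 CPM in wild-type libraries. Reads of near-identical repeats may have been split by the counting, so a sum is firmer than single entries. The sum above covers only the 8 profiles that fell, so its low level follows in part from that choice. The borders of the stretch are the first and last short entries that fell, so the share that fell follows in part from them. ENSDARG00000104781, which starts 0.962 kb before the stretch, was lower with every library only. It had 4.65 and 4.67 CPM in maternal null libraries, against 7.8 and 7.32 CPM in wild-type libraries.

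**Figure D5:**
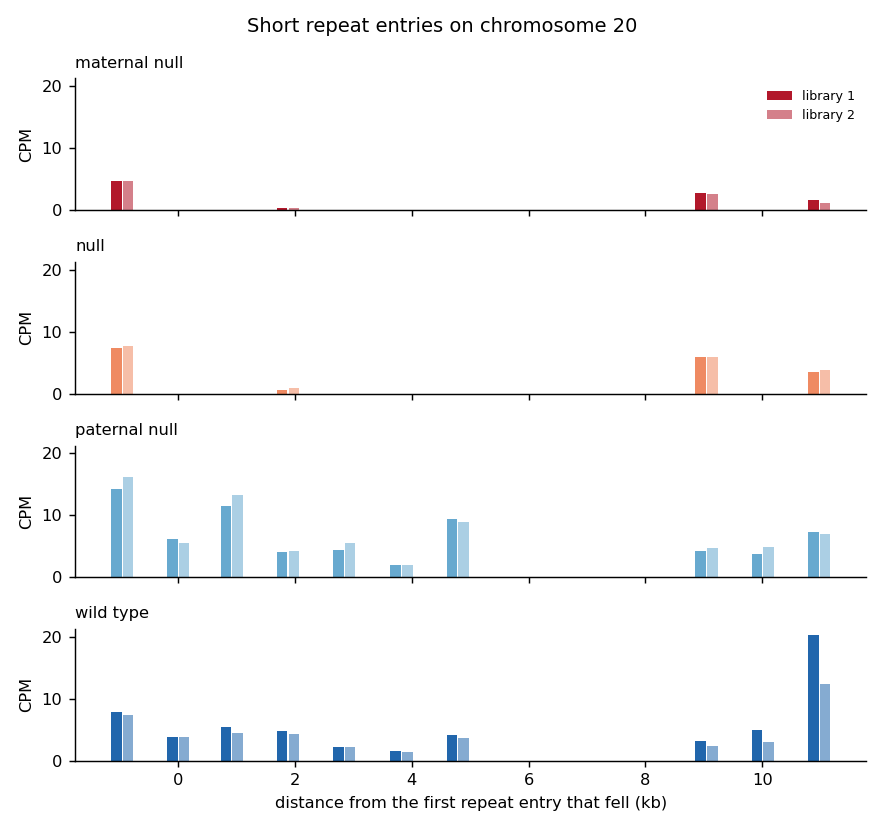
CPM of each distinct short repeat entry on chromosome 20 (bars, dark for library 1 and light for library 2) against its distance in kb from the first entry that fell, for maternal null, null, paternal null and wild type from top to bottom. Most entries are near 0 in maternal null and null and present in paternal null and wild type; the entries at the left end and near 9 kb are present in all 4 groups.

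Among genes of axis formation, few were higher and none was lower, against 3.33% and 2.67% of all genes. None of 46 tested mesoderm and endoderm genes was called (median -0.14), 1 of 40 dorsal organizer genes was higher (2.5%, against 3.33% of all genes), and 1 of 53 neural and later patterning genes was higher (1.89%). The organizer gene dharma had 1.62 and 1.61 CPM in maternal null libraries, against 0.677 and 0.444 CPM in wild-type libraries (edgeR adjusted p = 0.0388 with every library, but 1.0 with pairs summed). Of 36 ventral and epidermal genes 2 were higher (5.56%), vox and gata2. Of 46 maternal oocyte genes 2 were higher (4.35%) and 1 lower (2.17%). None of 15 DNA methylation genes was called, and none of 78 cytosolic ribosomal protein genes was called (median -0.07). Of 13 listed genes of the mitochondrial chromosome 2 were lower (15.4%, against 2.67% of all genes) and none higher (median -0.32). Over all 36 tested entries of that chromosome 2 were lower and none higher, so that 5.56% were called, against 6.0% of all genes. The gene mt-atp6 had 170 and 176 CPM in maternal null libraries and 485 and 264 CPM in wild-type libraries. All entries of that chromosome together took 2.40% and 2.42% of the counts in maternal null libraries, against 1.82% and 1.96% in wild-type libraries.

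The genes called with every library were spread over the chromosomes. With every library the share called ran from 3.93% on chromosome 17 to 8.62% on chromosome 15. Within 5 Mb of anp32e, 4 of 127 tested genes were higher and 2 lower (4.72%, against 6.0% of all genes). Of these, col1a2 and ptdss1 (ENSDARG00000102114) rose, 1.36 and 3.72 Mb from anp32e, while 0.381% of all genes rose. The genes that rose or fell were less evenly spread. Of those that rose, 12 of 73 lay on chromosome 3, which held 990 of the 19166 tested genes. Among the 12 are the neighbours hsp70.1, hspa2 and hsp70.3. ENSDARG00000097913, also among them, lies within the interval of cacna1ha, so reads may be shared there too. Of those that fell, 17 of 41 lay on chromosome 20, which held 835 tested genes, and 15 of the 17 were in the repeat stretch.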

How the data were processed

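The authors deposited read counts per Ensembl gene, not normalized; the processing notes of the submitters name Novoalign 2.8 and DESeq2, and per the file headers coordinates are those of Zv10. Every deposited gene reaches at least 10 counts in some library. Counter, annotation release and strand setting: not given in the sources used here. Of 22737 genes, 20669 were given a symbol through their identifier; identifiers that share a symbol are named by identifier. RNA came from whole embryos by Trizol with SDS, in stranded libraries without ribosomal RNA, per the labels.

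Counts of the 8 shield libraries were TMM-scaled, filtered by filterByExpr and tested with the quasi-likelihood method of edgeR 4.0.16 (robust, R 4.3.3), with Benjamini-Hochberg adjustment over all 19166 genes tested (4 residual degrees of freedom, common coefficient of variation 0.167). A second fit summed each pair of libraries whose chi-square per degree of freedom, over genes with at least 20 counts, was under 2 (5 samples, 1 residual degree of freedom, coefficient 0.344, 21167 genes). SE is the log2 fold change over the root of F, and with near-identical pairs it can understate the spread. CPM is over a library's total. A group fold is of summed counts over summed totals, with a floor of 3 counts over the group where a group had 0 and an exact 95% interval for 1 to 3 counts; both cover counting error only. The fit with every library was tested on simulated data, in which all libraries varied independently. The fit with pairs summed was not tested that way.

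The comparison, the gene lists and the rule for named genes were chosen with earlier results of these data known. Named were anp32e, in each direction the 10 genes that rose or fell with the highest level and the 10 with the largest fold change, and from each list the members called in both fits and the 4 with the smallest adjusted p. Markers aside, hspa1b, fn1, cart4, trio, ptdss1, ENSDARG00000099125, ENSDARG00000104781 and ENSDARG00000087060 were chosen after their values were seen. Alternatives were other scalings, filters, fits, sample sets, DESeq2 1.42.0, a replicate block and leaving out each library. Promoters were not analysed here.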

Additional observations from a re-analysis of the deposited data

Results flagged for a closer look

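In 14 distinct genes or entries that moved in both fits and averaged at least 1 CPM in wild type, the paternal null libraries lay on the opposite side of both wild-type libraries from the maternal null libraries, and the difference between the crosses passed in edgeR's quasi-likelihood test (1778 of all tested genes, 9.28%, passed there). Both crosses are near-identical pairs, so that test has no spread of its own between embryos of a cross. With 1 sample per pair 104 genes passed. The 14 come from 73 distinct count profiles that rose, of which 41 averaged under 1 CPM in wild type, and 33 that fell. How many of all tested genes had paternal null libraries on the opposite side of both wild-type libraries is not given here. The count therefore describes these 14 only and is not set against a background.

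Higher in maternal null than in paternal null, with wild type between, were 7. They are cxcl18b (log2 difference 10.5, a fitted value against 0 counts in paternal null that is no measure of size), col1a1 (6.0), si:dkey-193p11.2 (5.85), the col10a1 copy ENSDARG00000101535 (4.69), si:dkey-238c7.12 (4.67), wu:fk65c09 (4.203) and col1a1a (3.71). For si:dkey-238c7.12 the values were 62.0 and 60.2 CPM in maternal null, 2.504 and 2.38 CPM in paternal null and 11.9 and 2.96 CPM in wild type. For si:dkey-193p11.2 they were 22.4 and 23.5 CPM in maternal null, 0.378 and 0.417 CPM in paternal null and 3.74 and 1.26 CPM in wild type. Wild-type replicate 1 was the higher wild-type library for these 7.

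Lower in maternal null than in paternal null, with wild type between, were the other 7. They are the chromosome 20 repeat entries ENSDARG00000101148 (log2 difference -8.25), ENSDARG00000104579 (-7.84), ENSDARG00000099893 (-6.51), ENSDARG00000100457 (-6.20) and ENSDARG00000100343 (-4.24), the gene rflnb (-6.36) and si:dkey-46g23.5 (-2.71). For ENSDARG00000104579 the values were 0.0541 and 0.0424 CPM in maternal null, 11.5 and 13.3 CPM in paternal null and 5.37 and 4.51 CPM in wild type. For si:dkey-46g23.5 the paternal null libraries, at 33.7 and 35.8 CPM, stood near the wild-type level of 33.2 and 31.6 CPM. Its difference between the crosses lies almost wholly in maternal null, at 4.97 and 5.43 CPM.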

How the results depend on the processing

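Counts are given as higher and lower with every library, then as higher and lower in both fits (639 and 512, then 73 and 41). With all 12 libraries they were 1021 and 926, then 24 and 22. In the fit of the 4 libraries alone they were 0 and 0, then 0 and 0, where fewer samples were left. With no scaling factors, an alternative chosen after seeing the data, they were 473 and 476, then 36 and 26, and the share of calls that were higher was 49.8% in place of 55.5%. DESeq2 gave 679 and 535, then 25 and 28. The fit with 1 sample per pair called 77 and 43. Leaving out a wild-type library gave 5017 to 5410 higher and 4718 to 5847 lower, and leaving out a maternal null library 32 to 42 and 13 to 20, then 20 to 26 and 10 to 17. The replicate block gave 328 and 240. The correlation of deviations between same-numbered libraries was -0.00413. It cannot tell whether the numbers pair the libraries, since the maternal null libraries differ by little more than counting noise. For the block and without a wild-type library the second fit could not be run, since no residual degree of freedom was left. Other scalings and filters kept each count within 1.5 times.

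The calls between the crosses (1778; these alternatives were chosen after seeing the data) became 104 with 1 sample per pair, 2682 with 12 libraries, 1119 with the block, and 79 to 168 without a library of a cross, but 10480 to 10487 without a wild-type library. Beyond the changes that fewer samples bring, the causes were not tested.

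Of 117 called genes among those named, none changed sign under any alternative. With every library, 95 passed with no scaling factors, 86 with the block, 30 and 20 without maternal null replicate 1 or 2, and 63 with 1 sample per pair. At these depths the floor of 3 counts over a group is 0.0713 CPM in maternal null and 0.0776 CPM in wild type.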

Other observations

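Further entries without a described function moved far. The entry si:dkey-88e12.4 had 2.65 and 3.01 CPM in maternal null libraries, a mean of 3.85 CPM in null libraries and no counts in paternal null or wild-type libraries, at least 36.8-fold higher than wild type. The entry si:ch1073-303d10.1 had 2.33 and 2.59 CPM in maternal null libraries and 0.0398 and 0.0740 CPM in wild-type libraries. The entry si:dkey-6f10.4 had no counts in maternal null or null libraries, against 1.55 and 0.961 CPM in wild-type libraries, at least 18.9-fold lower.

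Close to anp32e on chromosome 19, the neuropeptide gene cart4 was higher, with 12.1 and 12.3 CPM in maternal null libraries and 4.98 and 4.81 CPM in wild-type libraries. The guanine nucleotide exchange factor gene trio was lower, with 42.9 and 41.5 CPM in maternal null libraries and 83.2 and 57.2 CPM in wild-type libraries. Both were picked for their place, after their values were seen.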
